A study of Mus musculus with 4 samples.

Results

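Helper and cytotoxic T cells were compared on the day of an allogeneic transplant, as 1 CD4 and 1 CD8 RNA-seq library of T cells from the spleen. An allogeneic transplant passes cells between genetically different individuals, and graft-versus-host disease is the attack of transplanted T cells on the recipient. The pair makes up 2 of the 4 libraries of the study and was chosen by label, not by its values. The mice were of the C57bl/6 strain, and each library held T cells of 5 mice pooled before a flow sort on CD4 or CD8. No genetic change or drug is named for either library, and both titles carry the word Donor. The other 2 libraries, a CD4 and a CD8 one of the same strain and pool size, carry day 14 in their characteristics but day 12 in their titles, and are called the libraries after transplant. The labels name no second sort marker and do not say whether the later T cells came from the donor alone. Their source field names innate lymphoid cells, while the cell type field names T cells.

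Every ratio compares 1 pool with 1 pool, so no difference has a replicate check and no p-value is given. Values are normalised reads: estimated reads per gene that the authors scaled within each library. Among the 21705 genes of the table, 9937 (45.8%) averaged at least 73 over the 4 libraries and were compared. A log2 ratio is CD4 over CD8 after adding 14.7 to each value, and genes past 2-fold on this scale, where log2 is 1 or -1, are called higher or lower in CD4. Where an interval is printed, its ratio uses the plain values, and the 95% exact binomial interval covers counting error only. Depth was 23633542 estimated reads in the CD4 library and 17972478 in the CD8 library, and a count of 3 reads stood at 1.99 and 2.48 normalised reads. After transplant the depth was 16130847 in CD4 and 9873850 in CD8. As these are bulk samples, fewer cells of a type and less RNA per cell cannot be told apart.

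CD4 and CD8 T cells arise from a common precursor in the thymus that carries both coreceptors. ThPOK, the product of Zbtb7b, holds cells in the CD4 lineage, where they recognise peptides on MHC class II and help other immune cells. Runx3 holds cells in the CD8 lineage, where they recognise MHC class I and kill, and Runx complexes act on silencer elements of Cd4 and Zbtb7b. Regulatory T cells, marked by Foxp3, are a CD4 subset that restrains other T cells.

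Because Runx complexes act in this lineage choice, the Runx core motif TGTGGT was searched on both strands of 300-base windows around gene starts. The windows come from RefSeq on build GRCm38.p6 and matched 117 of the 147 genes called lower in CD4 and 373 of the 489 called higher. The motif stood in 22.2% of the first set, 14.5% of the second, 12.5% of 8004 windows of compared genes and 16.9% of all 27025 windows. A GATA core, AGATAA, searched for contrast, stood in 12%, 7.77%, 6.16% and 11.4% of the same sets, and the median GC content was 57.3%, 59.7%, 61% and 52.7%. The 2 motifs overlapped in 0 windows of the called sets, in 2 of the compared genes and in 5 of all windows. A match is a description of letters and not a binding site, and both motifs were more frequent in the first set than in compared genes. Shown here are the windows of 3 CD8-high cytotoxic genes and of Zbtb7b that hold the motif, picked after the matches had been seen, and that of Cd8a, which does not hold it.
The windows are Cd8a (chr6:71373177-71373476, plus strand), Nkg7 (chr7:43436888-43437187, plus strand), Gzmm (chr10:79688770-79689069, plus strand), Cst7 (chr2:150570165-150570464, plus strand) and the second listed start of Zbtb7b (chr3:89387622-89387921, minus strand). Each is written from 5′ to 3′ on the strand of its gene, and capitals mark the motif or its reverse complement.
Cd8a: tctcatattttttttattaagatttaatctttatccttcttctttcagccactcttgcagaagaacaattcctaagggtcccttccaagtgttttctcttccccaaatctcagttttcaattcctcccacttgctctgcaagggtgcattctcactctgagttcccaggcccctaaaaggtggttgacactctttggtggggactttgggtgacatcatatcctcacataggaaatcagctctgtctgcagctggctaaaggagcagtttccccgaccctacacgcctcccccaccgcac
Nkg7: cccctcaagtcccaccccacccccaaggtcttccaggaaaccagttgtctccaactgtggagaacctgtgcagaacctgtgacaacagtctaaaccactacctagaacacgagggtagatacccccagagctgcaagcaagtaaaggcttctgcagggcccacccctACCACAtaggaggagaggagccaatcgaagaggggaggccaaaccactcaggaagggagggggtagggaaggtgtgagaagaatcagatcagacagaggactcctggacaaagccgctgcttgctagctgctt
Gzmm: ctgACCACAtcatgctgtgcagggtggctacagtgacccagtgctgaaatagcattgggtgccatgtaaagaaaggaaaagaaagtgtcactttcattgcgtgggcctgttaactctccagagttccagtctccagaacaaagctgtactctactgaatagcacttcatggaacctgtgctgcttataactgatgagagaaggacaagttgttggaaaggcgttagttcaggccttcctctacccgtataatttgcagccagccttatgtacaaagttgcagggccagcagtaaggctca
Cst7: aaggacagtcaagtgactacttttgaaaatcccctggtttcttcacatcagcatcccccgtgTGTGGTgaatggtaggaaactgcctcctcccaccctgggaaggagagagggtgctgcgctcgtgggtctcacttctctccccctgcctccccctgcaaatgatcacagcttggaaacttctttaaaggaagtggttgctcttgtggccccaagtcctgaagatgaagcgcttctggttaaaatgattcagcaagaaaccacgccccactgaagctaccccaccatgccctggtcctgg
Zbtb7b: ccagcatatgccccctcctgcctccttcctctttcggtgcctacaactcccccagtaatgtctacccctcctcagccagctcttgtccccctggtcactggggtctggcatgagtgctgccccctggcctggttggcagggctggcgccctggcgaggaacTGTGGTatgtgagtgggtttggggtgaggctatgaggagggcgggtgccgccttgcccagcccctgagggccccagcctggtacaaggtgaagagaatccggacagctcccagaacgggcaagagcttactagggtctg
Counted from the 5′ end of each window, the motif began at base 168 in Nkg7, base 4 in Gzmm, base 63 in Cst7 and base 162 in Zbtb7b. It read TGTGGT on the gene's strand in Cst7 and Zbtb7b, and on the opposite strand in Nkg7 and Gzmm.

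Most genes stood at similar levels in CD4 and CD8 cells at transplant. Of the 9937 genes, 489 (4.92%) were at least 2-fold higher in CD4, 147 (1.48%) were at least 2-fold lower, and 8314 (83.7%) had a log2 ratio within 0.5 of 0. At 4-fold the counts were 145 higher (1.46%) and 51 lower (0.513%). Counted over all 9937 genes on plain values, called or not, the whole counting interval was past 2-fold higher for 426 (4.29%). It was past 2-fold lower for 124 (1.25%). The median log2 ratio of all genes was 0.14, and it became -0.02 under trimmed mean of M-values scaling and -0.04 under median of ratios scaling. With the genes cut into 3 equal bins by mean level, more were higher than lower in CD4 in each: 334 higher and 74 lower in the low bin, 108 and 30 in the middle bin, and 47 and 43 in the high bin. Just inside the limit on the mean were Bola1, Slc9a5 and Ankrd37, with means between 73.07 and 73.11, and just outside it A730008H23Rik, Fcrl1 and Pcbp3, with means between 72.68 and 72.85.

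**Figure D1:**
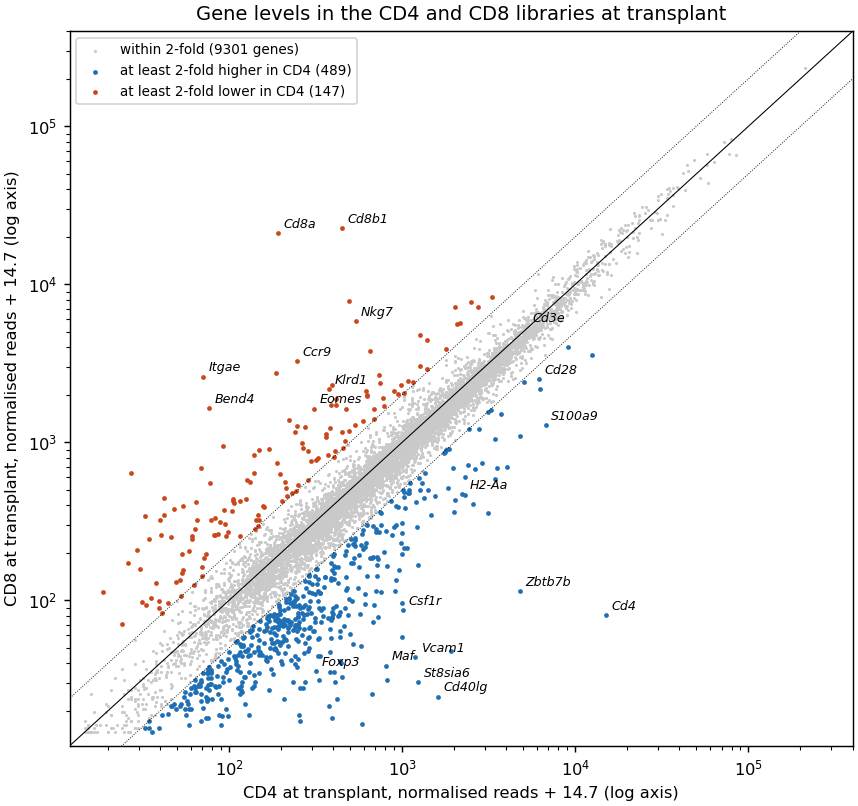
Each point is 1 of the 9937 genes, with normalised reads plus 14.7 in the CD4 library on the horizontal and in the CD8 library on the vertical log axis, and dotted lines mark 2-fold. The 489 blue genes were higher in CD4, the 147 red genes were lower, and Cd4 and Cd8a lie farthest from the diagonal of equal levels.

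The coreceptor genes followed the labels of both libraries. Cd4 (Entrez 12504), which encodes the coreceptor for MHC class II, stood at 15134 in the CD4 library and 66.1 in the CD8 library, a ratio of 229 (184 to 289). Cd8a (12525), the alpha chain of the coreceptor of cytotoxic T cells, stood at 177 in CD4 and 21107 in CD8, 119.5-fold lower in CD4 (106 to 135). Cd8b1 (12526), the beta chain that pairs with it on conventional CD8 T cells, stood at 435 in CD4 and 22739 in CD8, 52.3-fold lower (48.4 to 56.6). The genes of T cell identity were alike in the pair: Cd3e, a chain of the receptor complex, stood at 5272 in CD4 and 5330.2 in CD8, and Thy1, a surface protein found on mouse T cells, at 14105 in CD4 and 18962 in CD8. Ncr1, the gene of NKp46 and a defining gene of NK cells and part of the innate lymphoid cells, the named source, stood at 172 in CD4 and 9.91 in CD8. Other genes listed for these cells stood higher, such as Klrb1c at 424 and 69.4 and Tyrobp at 597 and 95, or lower, such as Il1rl1 at 61.1 and 9.08. Which cells the libraries held beside T cells was not tested. The largest log2 ratio of 4 Y-linked genes was 0.36 in size.

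Beside Cd4, the CD4 library was set apart by Zbtb7b, Cd40lg and Maf. Zbtb7b (Entrez 22724), the gene of ThPOK, stood at 4802 in CD4 and 99.1 in CD8, a ratio of 48.5 (40.5 to 58.5). Cd40lg, the ligand through which helper T cells stimulate B cells and dendritic cells, stood at 1595 in CD4 and 9.91 in CD8, a ratio of 161 (92.0 to 312). Maf, a transcription factor of helper T cells that macrophages also express, stood at 795 in CD4 and 24 in CD8 (log2 ratio 4.39). St8sia6, a sialyltransferase, stood at 1220.5 in CD4 and 15.7 in CD8 (log2 ratio 5.34). Runx1, a Runx factor of CD4 cells and their precursors, stood at 1956 in CD4 and 673 in CD8 (log2 ratio 1.52). Gata3, a factor of the helper lineage, stayed within 2-fold at 1034 in CD4 and 587 in CD8, and so did Runx3, at 2157 in CD4 and 2676 in CD8 (log2 ratio -0.31). The ThPOK transcript differed far more between the pair than the Runx3 transcript did.

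Of 19 helper lineage genes, all of which passed the filter, 9 were higher in CD4 and 0 lower, against 4.92% and 1.48% of all genes. The median log2 ratio was 0.99, against 0.14 for all genes. Cd4 is among the 9, and the sort on CD4 or CD8 set its call in advance. The 9 also included Cd28, the costimulatory receptor that T cells need for full activation, at 6124 in CD4 and 2497 in CD8. Tnfrsf25, a receptor of the tumour necrosis factor family, stood at 906 in CD4 and 284 in CD8, and Slamf1, an adhesion receptor, at 493 and 158. Cd200, a surface protein that restrains myeloid cells, had a log2 ratio of 1.96. Icos, a costimulator of follicular helper cells, lay just short of the limit at 0.99. Il6st, a signalling chain of the interleukin-6 receptor, stood at 3989 in CD4 and 3678 in CD8, while Il6ra, the chain that binds the cytokine, stood at 4809 and 2842. Lists overlap, and 15 of these 19 genes also stand in another list used here. All lists were chosen with earlier results of these data known.

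Among the 27 lineage transcription factors, which all passed, 3 were higher and 2 lower in CD4, against 4.92% and 1.48% of all genes (median log2 ratio 0.25, against 0.14). The higher ones were Zbtb7b, Runx1 and Tox2, an HMG-box factor of follicular helper cells that stood at 75 in CD4 and at 1.65 in CD8 (2 reads), a ratio of 45.4 (12.3 to 379.7). The lower ones were Eomes, a T-box factor of memory CD8 T cells and NK cells, and Tbx21, the gene of T-bet. Eomes stood at 295 in CD4 and 1614 in CD8 (log2 ratio -2.39), and Tbx21 at 387 and 790.4 (log2 ratio -1.0). Tbx21 lay just inside the 2-fold limit, and its log2 ratio was -0.93 with a pseudocount 4 times as large. The factors of naive T cells were near equal, as with Tcf7 at 30033 in CD4 and 25549 in CD8 and Lef1 at 5680 in CD4 and 4811 in CD8.

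**Figure D2:**
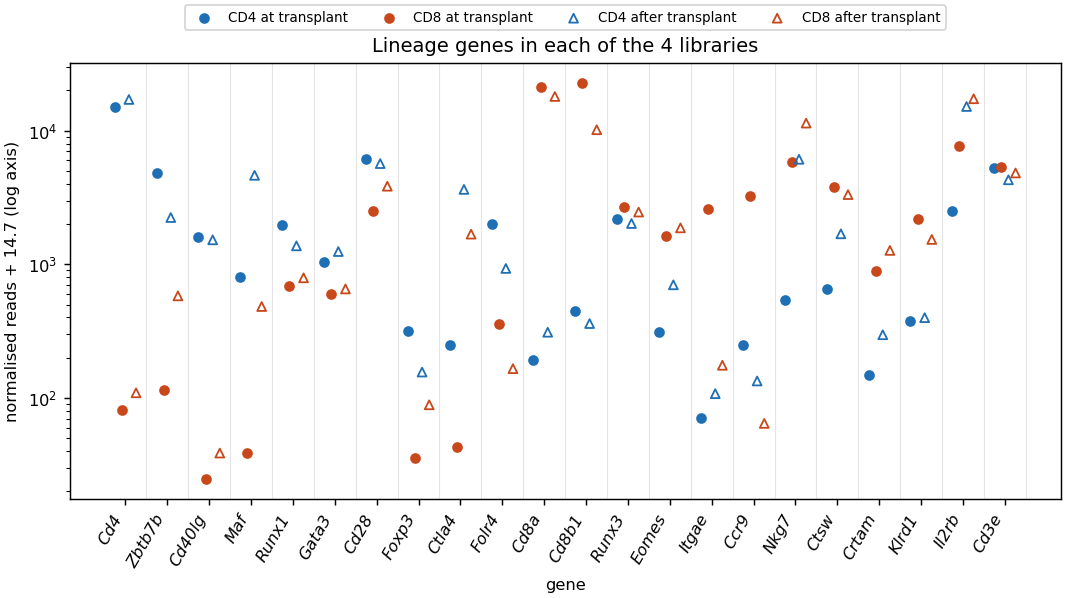
Normalised reads plus 14.7 (log axis) of 22 genes are shown in each of the 4 libraries, with filled circles for the libraries at transplant, open triangles for those after transplant, blue for CD4 and red for CD8, and each point is 1 library. At transplant the blue circle lies above the red one from Cd4 to Folr4 and below it from Cd8a to Il2rb, while Cd3e, the last gene, stood at 5272 in CD4 and 5330.2 in CD8.

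The genes higher in CD8 were led by receptors, granule proteins and homing molecules of cytotoxic T cells. Of 22 cytotoxic lineage genes, which all passed, 16 were lower in CD4 and 2 higher, against 1.48% and 4.92% of all genes. The median log2 ratio was -2.11, against 0.14. Cd8a and Cd8b1 are among the 16, and the sort on CD4 or CD8 set their calls in advance. Of the 22 genes, 19 also stand in another list used here. Itgae, the integrin chain CD103 that binds E-cadherin on epithelium, stood at 56.4 in CD4 and 2581 in CD8, 45.7-fold lower in CD4 (36.9 to 57.4). Ccr9, a receptor of gut-homing T cells, stood at 233 in CD4 and 3252 in CD8 (log2 ratio -3.72). Nkg7, a granule membrane protein of killer cells, stood at 523 in CD4 and 5817 in CD8, 11.1-fold lower (10.3 to 12). Crtam, an adhesion receptor of activated cytotoxic cells, stood at 134 in CD4 and 875 in CD8, and Klrd1, the gene of CD94, at 363 and 2156. Il2rb, the chain shared by the receptors of interleukin-2 and interleukin-15, stood at 2501 in CD4 and 7724 in CD8 (log2 ratio -1.62).

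The 2 cytotoxic lineage genes that were higher in CD4 were Cd244 and Fasl. Cd244, a receptor of NK cells and activated CD8 T cells, stood at 185 in CD4 and 26.4 in CD8, a ratio of 6.98 (4.83 to 10.4). Fasl, the death ligand, stood at 227 in CD4 and 52.9 in CD8, a ratio of 4.30 (3.28 to 5.70). NK cells express both genes. Among 11 NK cell and innate lymphoid genes that passed the filter, 6 were also higher in the CD4 library, against 4.92% of all genes. The list summed to 4163 in CD4 and 1632 in CD8. The part of NK cells in the result was not tested.

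Granule genes were not uniformly higher in CD8 at transplant. Of 16 cytotoxic effector genes, 5 were lower in CD4 and 1 higher, against 1.48% and 4.92% of all genes (median log2 ratio -0.43). Besides Nkg7, the lower ones were Gzmm, a granule protease, at 33.2 in CD4 and 362 in CD8, Ctsw and Cst7, a cathepsin and a cystatin of killer cells, with log2 ratios of -2.53 and -2.37, and Gzmk, at 29.9 in CD4 and 80.9 in CD8. Prf1, the pore-forming perforin, stood at 818 in CD4 and 1522 in CD8, and Gzmb, the protease that starts apoptosis in target cells, at 179 and 250.2, both within 2-fold. Gzma stood the other way, at 798 in CD4 and 461 in CD8 (log2 ratio 0.77). It also stands in the list of NK cell and innate lymphoid genes, and the part of such cells in the granule gene levels was not tested. Ifng was low in both, at 61.1 in CD4 and 24 in CD8.

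Genes of virtual memory and memory CD8 T cells, which arise in unprimed mice as well as after priming, followed the CD8 library. Of 24 such genes, 12 were lower in CD4 and 1 higher, against 1.48% and 4.92% of all genes (median log2 ratio -0.88, against 0.14). This is not a separate result, as 17 of the 24 genes also stand in another list used here. Il2rb, Eomes, Tbx21, Klrd1, Xcl1 and Nkg7 also count among the lower cytotoxic lineage genes. Ccl5, a chemokine stored by memory cells, stood at 1252 in CD4 and 4779 in CD8 (log2 ratio -1.92), and Samd3 at 125 and 624. Cd44, a marker of antigen-experienced cells, stood within 2-fold at 1821 in CD4 and 1076 in CD8. The 1 higher gene was Ly6c1, at 1898 in CD4 and 33.2 in CD8, while its near-identical neighbour Ly6c2 stood at 475 in CD4 and 7813 in CD8 (log2 ratios 5.32 and -4.00). Reads of the 2 genes may be split unevenly by the estimate, so each value is uncertain. Summed, they stood at 2373 in CD4 and 7846 in CD8 (log2 ratio -1.72).

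Several of the lowest ratios belonged to genes outside the classical cytotoxic lists. Slc6a19, a transporter of neutral amino acids, stood at 12.6 in CD4 and 628 in CD8, 49.8-fold lower in CD4 (31.7 to 83.2). Bend4, a BEN-domain gene, stood at 61.8 in CD4 and 1624 in CD8 (log2 ratio -4.42). Haao, an enzyme of tryptophan breakdown along the kynurenine pathway, stood at 27.2 in CD4 and 432 in CD8 (log2 ratio -3.41). Rcn3, a calcium-binding protein of the endoplasmic reticulum, Eng, a co-receptor of the TGF-beta family, Cxxc5, a CXXC zinc finger protein, and Snai3, a Snail family repressor, had log2 ratios of -3.37, -3.33, -2.82 and -2.70. These 7 genes and 7 named above were among the 15 genes with the lowest log2 ratios among those with a standard symbol and a mean of at least 147.

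Genes of regulatory T cells leaned to the CD4 library. Of 19 such genes 16 passed the filter, and 9 were higher and 1 lower in CD4, against 4.92% and 1.48% of all genes. The median log2 ratio was 1.41, against 0.14 for all genes. Foxp3, the defining transcription factor, stood at 305 in CD4 and 20.8 in CD8, a ratio of 14.7 (9.87 to 23.1). Ctla4, an inhibitory receptor, stood at 236 in CD4 and 28.1 in CD8, and Folr4, a surface protein of regulatory T cells and the egg's sperm receptor in mice, at 1990.0 and 345. Il2ra, the gene of CD25, stood at 137 in CD4 and 32.2 in CD8, and Nrp1, a semaphorin receptor that dendritic cells also express, at 373 and 60.3. Ikzf2, the gene of Helios, stood within 2-fold at 531 in CD4 and 272 in CD8. The 1 lower member was Itgae, which regulatory and CD8 T cells both express. Which cells held the transcripts of this list was not tested.

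Cytokine genes of helper subsets were low at transplant, while receptors ranged wider, such as Cxcr3, a receptor of Th1 cells, at 687 in CD4 and 1116 in CD8. Of 21 helper subset and follicular helper genes 13 passed the filter (median log2 ratio 0.97). Among the 13, 1 was lower and 6 were higher in CD4, against 1.48% and 4.92% of all genes. Beside Maf the higher ones included Pdcd1, the inhibitory receptor PD-1, at 248 in CD4 and 45.4 in CD8. Il12rb2, which signals for interleukin-12, stood at 118 and 30.6, and Il1rl1, the interleukin-33 receptor, at 61.1 and 9.08. Ccr6, a receptor of Th17 cells, stood at 43.8 in CD4 and 1.65 in CD8 (2 reads), a ratio of 26.5 (7.06 to 224). Il21 stood at 24.6 in CD4 and at 1 read in CD8 (0.826), a ratio of 29.7 (5.02 to 1206). Il4 and Il17f did not pass the filter, at 9.96 and 1.33 in CD4 and at 0 and 1.65 in CD8, and Il17a was at 0 in both. Il9r, the receptor of interleukin-9, also fell short of the filter and stood at 87.0 in CD4 and 0 in CD8, at least 35.1-fold higher against a count of 3 reads.

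Costimulatory and inhibitory receptors leaned to the CD4 library. Of 25 such genes, 11 were higher and 2 lower in CD4, against 4.92% and 1.48% of all genes (median log2 ratio 0.97, against 0.14). As 15 of the 25 genes also stand in another list used here, this is not a separate result. Cd28, Cd40lg, Tnfrsf4, Tnfrsf25, Slamf1 and Cd200 also count among the higher helper lineage genes. Tnfrsf4, the costimulator OX40, stood at 197 in CD4 and 42.1 in CD8, and Lag3, an inhibitory receptor that binds MHC class II, at 119.5 and 37.2. Tigit, an inhibitory receptor of T and NK cells, stood at 114 in CD4 and 34.7 in CD8. The lower ones were Cd226, the activating partner of Tigit, at 1069 in CD4 and 2419.8 in CD8, and Cd160, at 195 and 543. Btla, another inhibitory receptor, stood at 2011 in CD4 and 1019 in CD8, just short of 2-fold.

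Chemokine and homing receptors differed in both directions, 4 of the 27 that passed being higher and 4 lower in CD4, against 4.92% and 1.48% of all genes (median log2 ratio 0.27). Ccr4, a receptor of Th2 and regulatory T cells, stood at 233 in CD4 and 23.1 in CD8, a ratio of 10.1 (6.85 to 15.4). Cxcr6, a receptor of effector and tissue T cells, stood at 614 in CD4 and 1976 in CD8 (log2 ratio -1.66). Ccr7, the receptor that leads T cells to lymph nodes, was near equal at 7523 in CD4 and 5753 in CD8. Itgb7, the chain that pairs with Itgae and Itga4, stood at 12866 in CD4 and 10442 in CD8, in contrast to Itgae. Among 26 cytokine receptor genes 3 were higher and 2 lower in CD4, against 4.92% and 1.48% of all genes (median 0.10). The higher ones were Tgfbr3, a TGF-beta co-receptor, at 1539 in CD4 and 440.2 in CD8, with Il2ra and Il12rb2.

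Few genes of the shared machinery of T cells were called, which is near the share over all genes and no trait of these lists. None of the 32 genes of the T cell receptor complex and its signalling passed 2-fold either way, against 4.92% higher and 1.48% lower of all genes. Their median log2 ratio was 0.07, with a range of -0.69 to 0.90. The largest ratio was that of Cd5, an inhibitor of receptor signalling, at 6659 in CD4 and 3555 in CD8, and the lowest that of Ptpn22, a phosphatase, at 3352 and 5408. Of 17 genes of naive and recirculating T cells 1 was higher and 0 lower, against 4.92% and 1.48% of all genes (median 0.21). It was Igfbp4, which binds insulin-like growth factors, at 12425 in CD4 and 3569 in CD8, a ratio of 3.48 (3.37 to 3.60).

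Few genes of general processes were called. Over all genes, 4.92% were higher and 1.48% lower in CD4, so such small counts are no trait of these lists. Of 20 S phase, 17 glycolysis and 14 housekeeping genes 0 were called either way (medians -0.01, 0.14 and 0.12). Of 22 G2 and M phase genes 1 was called, Ccnb1, a mitotic cyclin, at 98.3 in CD4 and 30.6 in CD8, with a list median of 0.38. The 30 cytosolic ribosomal protein genes had a median of -0.23 and a range of -0.36 to 0.00, and 29 of them lay below 0. Of 22 type I interferon response genes Ifit2 was higher, at 1725 in CD4 and 845 in CD8, and Mx1 lower, at 129 and 306. Among 16 heat shock genes Hspa1a and Bag3, a chaperone and its cofactor, were higher (log2 ratios 1.08 and 1.05). Hspa1b, of the same family as Hspa1a, stayed within 2-fold at 2258.5 in CD4 and 1305 in CD8 (log2 ratio 0.78). Among 21 immediate early genes Nr4a1, a nuclear receptor induced by T cell receptor signals, was higher, at 912 in CD4 and 382 in CD8, while Ier3 was lower, at 16.6 and 82.6. Ifit2, Hspa1a and Bag3 fell under 2-fold with the trimmed mean of M-values and median of ratios scalings.

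**Figure D3:**
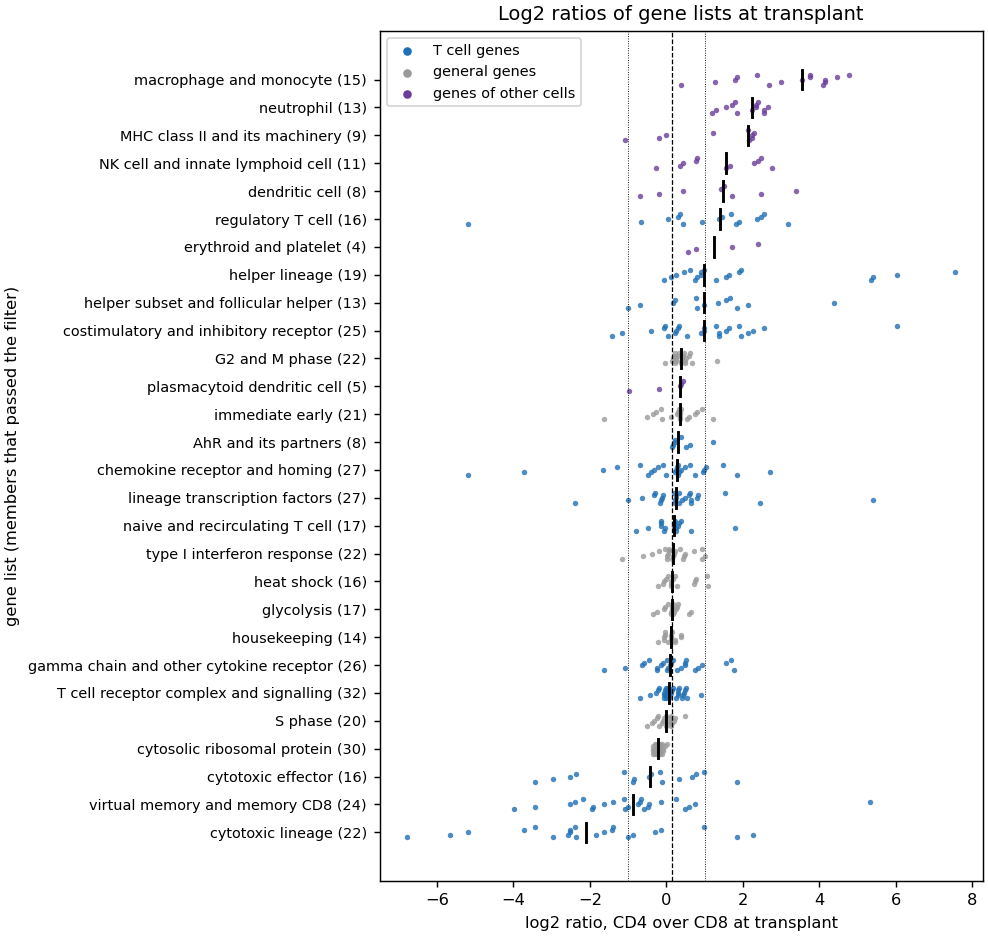
Each point is the log2 ratio of CD4 over CD8 at transplant of 1 gene that passed the filter, with 1 line for each list with its number of such genes in brackets. The black bar is the list median, the dashed line the median of all genes (0.14) and the dotted lines 2-fold. Lists of macrophage, neutrophil and MHC class II genes lie at the top with medians of 3.55, 2.25 and 2.12, and the cytotoxic lineage at the bottom with -2.11.

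Ahr, the ligand-activated receptor named in the title of the series, stood at 106 in CD4 and 37.2 in CD8, a ratio of 2.84 (2.03 to 4.05). Over all genes, 4.92% were higher and 1.48% lower in CD4. Among 8 genes of AhR and its partners that passed the filter, Ahr was the 1 called gene (list median 0.31). Its partner Arnt stood at 1218 in CD4 and 923 in CD8, and Tiparp, an AhR-induced polymerase, at 506 and 430.4. The log2 ratio of Ahr, 1.21, was 0.78 with a pseudocount 4 times as large. Macrophages and dendritic cells also express Ahr, and the level of their genes in the CD4 library, given next, stands beside this value; their part in it was not tested.

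Transcripts of macrophages, neutrophils, antigen-presenting cells and NK cells were higher in the CD4 library than in the CD8 library at transplant. Over 12 lists of cells other than conventional T cells, 147 genes were in the table and 74 passed the filter. Of the 74, 49 (66.2%) were higher and 4 lower in CD4, against 4.92% and 1.48% of all genes. Because the filter used the mean of the 4 libraries, some members passed only through their high value in this CD4 library. An example is Mrc1, a macrophage gene, at 238 in CD4 and 4.13 in CD8, and at 22.8 and 32.4 after transplant. Counts and medians of these lists are thus not independent of the filter. Of the 4 lower genes 2 came from the list of gamma delta and NKT cells, which are T cells themselves. Of 23 macrophage and monocyte genes 15 passed, and 14 of these were higher (median log2 ratio 3.55). Csf1r, the receptor on which macrophages depend, stood at 1002 in CD4 and 71.9 in CD8, a ratio of 13.9 (11.2 to 17.5). C1qa, C1qb and C1qc, chains of the first complement component made by tissue macrophages, stood at 404, 362 and 381 in CD4 and at 9.08, 6.61 and 3.30 in CD8. Vcam1, an adhesion molecule, and Slc40a1, the iron exporter ferroportin, both typical of red pulp macrophages of the spleen, stood at 1175 and 982 in CD4 and at 28.9 and 43.8 in CD8. Hmox1, which breaks down heme, stood at 436 in CD4 and 18.2 in CD8 (log2 ratio 3.78). Lgmn, a lysosomal protease, Ckb, a creatine kinase, and Plxnd1, a semaphorin receptor, were also among the 15 highest ratios, with log2 ratios of 3.50, 3.46 and 3.45.

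Neutrophil genes had the highest summed level of these lists in the CD4 library. All 13 in the table passed and were higher in CD4, against 4.92% of all genes (median log2 ratio 2.25). S100a9 and S100a8, the calprotectin subunits, stood at 6741 and 4026 in CD4 and at 1265 and 679.7 in CD8. Ltf, the granule protein lactoferrin, stood at 2565 in CD4 and 392 in CD8, a ratio of 6.54 (5.94 to 7.21). Summed over the list the level was 21067 in CD4 and 3885 in CD8, and summed over the macrophage list 12803 and 2573.

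Antigen presentation genes showed the same side. Of 9 MHC class II genes that passed, 6 were higher and 1 lower in CD4, against 4.92% and 1.48% of all genes (median log2 ratio 2.12). H2-Aa and H2-Ab1, the chains of I-A, stood at 2279 and 2197 in CD4 and at 451 and 456 in CD8, Cd74, the invariant chain, at 4775 and 1086, and Ciita, the master regulator of the locus, at 336 and 64.4. H2-Ob, H2-DMa and H2-Oa did not follow: H2-Ob stood at 1284 in CD4 and 1294 in CD8, H2-DMa at 550.5 and 633, and H2-Oa, the lower one, at 200.1 and 442. Of 8 dendritic cell genes that passed 5 were higher and 0 lower, led by Sirpa, an inhibitory receptor of myeloid cells, at 989 in CD4 and 81.8 in CD8. Flt3, the receptor that drives dendritic cell development, stood at 168 in CD4 and 52.9 in CD8. It passed the filter at a mean of 73.7 through this CD4 value, with 24.5 in CD4 and 49.4 in CD8 after transplant.

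NK cell genes were also higher in CD4, with 6 of 11 called and 0 lower, against 4.92% and 1.48% of all genes (median log2 ratio 1.55). Klrb1c, the gene of NK1.1, stood at 424 in CD4 and 69.4 in CD8, a ratio of 6.12 (4.87 to 7.77). Tyrobp and Fcer1g, signalling adaptors of NK and myeloid cells, stood at 597 and 374 in CD4 and at 95 and 42.9 in CD8. Zbtb16, the PLZF factor of NKT cells, did not pass the filter and stood at 82.3 in CD4 and 4.13 in CD8, while Cd163l1 and 5830411N06Rik, SCART receptors of gamma delta T cells, stood at 19.9 and 25.9 in CD4 and at 231 and 245 in CD8.

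The defining B cell genes were near 0 in both libraries. Ms4a1, the gene of CD20, stood at 20.6 in CD4 and 2.48 in CD8, and Pax5 and Ebf1 were at 0 in both. The summed B cell list was 348 in CD4 and 456 in CD8, and 2 of its 16 genes passed the filter. One of them, Cd79b, a signalling chain of the B cell receptor, stood at 50.5 in CD4 and 309 in CD8, whereas its partner Cd79a stood at 25.9 and 6.61. Erythroid and platelet genes summed to 793 in CD4 and 272 in CD8, with Hba-a2 and Hbb-b1, globin chains, at 311 and 164 in CD4 and at 85.1 and 19.2 in CD8. Without the members of all 12 lists the counts were 440 higher and 143 lower. The lists hold only 74 of the 9937 compared genes, so most called genes had to stand outside them. Which cells held the other called transcripts was not tested.

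**Figure D4:**
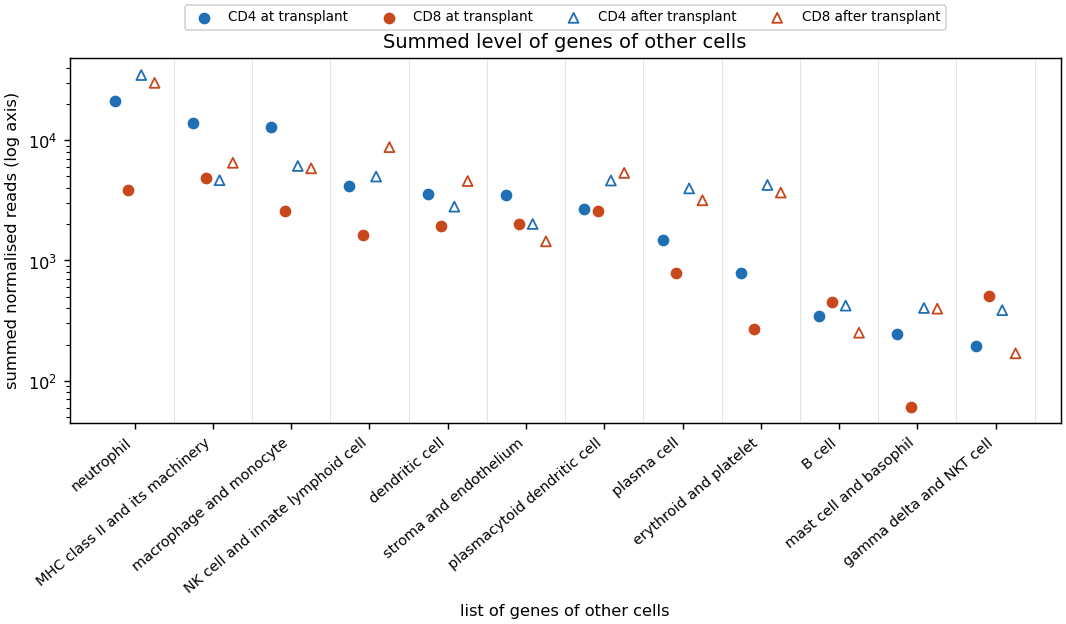
Summed normalised reads (log axis) of 12 lists of genes of other cells are shown in each library, with filled circles at transplant, open triangles after transplant, blue for CD4 and red for CD8. At transplant the neutrophil sum was 21067 in CD4 and 3885 in CD8 and the macrophage sum 12803 and 2573, and after transplant the neutrophil sums were 34734 and 29908.

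Some genes were seen in 1 library of the pair alone. At 0 in CD8 with more than 20 reads in CD4 were 40 genes, of which 1, Penk, passed the filter, and the reverse held for 3 genes. Among the 40 were Cd14, a myeloid receptor of bacterial lipopolysaccharide, at 46.5 in CD4, Igf1, a growth factor made by macrophages, at 70.4, and Timd4, a receptor for dying cells on resident macrophages, at 17.9. Klra6, a receptor of the Ly49 family, showed the reverse at 0 in CD4 and 130.9 in CD8. The family holds near-identical copies, so its value is uncertain. These genes were named after their values had been seen.

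The CD4 over CD8 ratios were then set beside those of the pair after transplant, which shares no library with the pair at transplant. After transplant 240 genes were higher (2.42%) and 95 lower (0.956%) in CD4. Higher in both pairs were 92 genes, 18.8% of those higher at transplant and 38.3% of those higher after it. Lower in both were 35, 23.8% of those lower at transplant and 36.8% of those lower after it. Of all 9937 genes, 0.926% and 0.352% were higher and lower in both. Across all genes the log2 ratios of the pairs had a Pearson r of 0.40 and a Spearman rho of 0.35, a description over genes, which are not independent replicates.

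Ranked by the smaller of the 2 ratios, the 10 genes highest in CD4 in both pairs were led by Cd4, Cd40lg and Maf. Cd4, Cd40lg and Maf had log2 ratios of 7.55, 6.03 and 4.39 at transplant and of 7.29, 5.30 and 3.26 after it. Tnfsf11, the cytokine RANKL, stood at transplant at 219 in CD4 and 15.7 in CD8, and later at 702 in CD4 and 42.3 in CD8. Asb2, a ubiquitin ligase subunit, and Tbc1d4, a Rab GTPase-activating protein, had log2 ratios of 3.41 and 2.88 at transplant and of 2.49 and 1.96 after it. Folr4, with 2.48 and 2.49, Tiam1, an activator of Rac, with 2.34 and 2.08, Trat1, a T cell receptor-associated adaptor, with 2.06 and 3.17, and Serpina3f, a protease inhibitor, with 2.03 and 2.39, complete the 10. On the CD8 side the 10 included Cd8a, Cd8b1, Bend4, Haao, Snai3, Crtam, Klrd1, Ccdc102a and Cd7. Cd7, an immunoglobulin family receptor of T and NK cells, stood at transplant at 721 in CD4 and 2644 in CD8, and later at 812 in CD4 and 2874 in CD8.

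Other genes, some of them lineage genes, were far apart at transplant and nearer after it. Apart from Zbtb7b, those given here were picked for a large difference between the pairs, so that difference is not a result. Zbtb7b, with a log2 ratio of 5.40 at transplant, stood at 2223 in CD4 and 566 in CD8 after it (log2 ratio 1.95). Itgae, with -5.19 at transplant, stood at 92.9 in CD4 and 161 in CD8 after it (-0.71), and Nkg7, with -3.44, at 6089.9 and 11371 (-0.90). St8sia6 was nearly gone after transplant, at 6.14 in CD4 and 0 in CD8, and so was Slc6a19, at 0.877 and 7.05. Pdlim4, a PDZ and LIM domain gene, and Myo10, a myosin of filopodia, had log2 ratios of 4.70 and 4.72 at transplant and of 0.37 and -0.47 after it. Ehd1, an endocytic recycling protein, stood at transplant at 398 in CD4 and 1864 in CD8, and later at 2325 in CD4 and 1532 in CD8. Ccr9 lay on opposite sides, with a log2 ratio of -3.72 at transplant and with 119 in CD4 and 49.8 in CD8 after it (log2 ratio 1.05). No test of the difference between the pairs was possible with 1 library in each group.

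Macrophage, neutrophil, MHC class II and NK cell genes had medians above 0 at transplant and nearer to 0 after it. The macrophage median log2 ratio was 3.55 at transplant and 0.14 after it, where 0 genes were higher and 1 lower in CD4. The neutrophil median was 2.25 and then 0.21, with 0 called. Over all genes after transplant, 2.42% were higher and 0.956% lower. The medians of MHC class II and NK cell genes were 2.12 and 1.55 at transplant and both -0.41 after it. The B cell and the gamma delta and NKT lists, with 2 genes each past the filter, had medians of -0.96 and -2.75 at transplant and of 0.06 and 1.05 after it. In the CD8 library at transplant the summed macrophage and neutrophil levels were 2573 and 3885, against 5829 and 29908 in the CD8 library after transplant. The helper lineage median was 0.99 at transplant and 1.15 after it, and the cytotoxic lineage median -2.11 and -1.20. What part the transcripts of other cells had in the differences between the pairs was not tested.

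**Figure D5:**
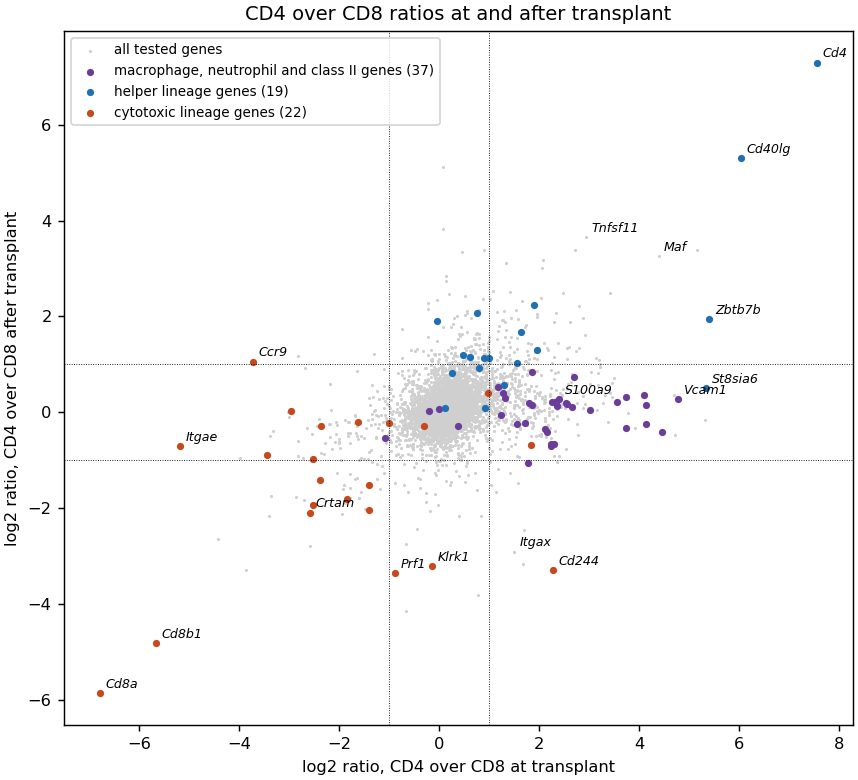
Each point is 1 of the 9937 genes, with its log2 ratio of CD4 over CD8 at transplant on the horizontal axis and after transplant on the vertical axis, and dotted lines mark 2-fold. Cd4 (7.55 and 7.29) and Cd8a (-6.79 and -5.86) lie near the diagonal, other lineage genes such as Zbtb7b (5.40 and 1.95) and Itgae (-5.19 and -0.71) lie off it, and purple macrophage, neutrophil and MHC class II genes mostly lie to the right near 0 on the vertical axis.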

How the data were processed

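RNA-seq libraries of CD4 and CD8 splenic T cells were made with a TruSeq mRNA protocol from RNeasy extracts, per the labels' protocols. The deposited table holds signal values, which are scaled estimated reads per gene. The upper quartile of genes above 0 was close to 1000 in each library (999.6 and 999.3 at transplant). Scaling to that value was inferred from these numbers alone. RSEM 1.1.13, SAMtools 1.2 and build mm9 come from the submitters' processing notes. The aligner, annotation and scaling step are not given in the sources used here. Divided by the value of 1 read (0.664 in CD4, 0.826 in CD8), 86.4% and 87.3% of the values above 0 lay no more than 0.1 from a whole read, so they were treated as estimates and no count test was run. The table held 2 columns with no header or values, and 26 gene symbols stood as numbers.

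Groups came from the labels. Ratios, 14.7 as pseudocount (1 ppm of the mean library total) and 34 gene lists (614 of 627 members in the table) were computed with Python 3.11.15, pandas 2.3.3 and scipy 1.17.1, and checked on simulated data. The members, lists and named genes were chosen with earlier results of these data known. Named genes have a standard symbol and, for those ranked over all genes, a mean of at least 147: the 15 largest and 15 lowest log2 ratios, 10 each way by the smaller ratio of both pairs, 10 each way by the difference between the pairs, up to 6 genes per list by size of log2 ratio, 3 per list of other cells and 5 per library by abundance, beside fixed lineage genes. Further genes serve as list members or were named after their values were seen. A few genes are not reported here. Alternatives were 3 scalings, 2 pseudocounts, 3 filters, leaving out genes of other cells and, added after seeing the data, counting intervals.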

Additional observations from a re-analysis of the deposited data

Results flagged for a closer look

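Of the 15 genes that passed 2-fold in opposite directions at and after transplant 14 are given here, and the difference between the pairs was not tested. Lower in CD4 at transplant and higher after it were Ccr9 (log2 ratio -3.72 at transplant and 1.05 after it), Cd163l1, a SCART receptor of gamma delta T cells (-2.83 and 1.17), and Plekho1, a pleckstrin homology domain gene (-1.30 and 1.21). Higher in CD4 at transplant and lower after it were genes that NK and myeloid cells also express, such as Cd244 (2.28 and -3.30), Itgax, the integrin CD11c (1.5 and -2.91), Gpr56, an adhesion receptor (1.70 and -2.46), Cd68, a lysosomal protein of macrophages (1.78 and -1.05), Syk, a kinase of B and myeloid cells (2.36 and -1.03), and Lat2, an adaptor of the same cells (1.13 and -1.66). So were Adamts14, a metalloprotease (1.67 and -3.16), Tmcc3 (1.57 and -1.47), Gcnt1, a glycan-branching enzyme of activated CD8 T cells (1.42 and -1.27), Galnt3, a glycosyltransferase (1.17 and -1.19), and Sepn1, a selenoprotein (1.03 and -1.52).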

How the results depend on the processing

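No paired analysis was possible because each group held 1 library and the labels give no replicate numbers. The 489 genes higher in CD4 became 315 with a pseudocount 4 times as large, 912 with no filter and 318 with a filter at a mean of 147, and the 92 higher in both pairs became 44 with the larger pseudocount. Under the other alternatives these counts and those of lower genes stayed within 1.5 times, as with 419 higher and 176 lower under trimmed mean of M-values scaling, 417 and 181 under median of ratios and 449 and 164 with equal library totals. Of 127 called genes among the 210 named, 23 fell under 2-fold in at least 1 setting and 0 changed sign. With 1 pool on each side, the spread between mice or sorts is unknown, and low genes rest on few reads.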
